A study of Mus musculus with 24 samples.

Results

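The ΔRRE mouse liver was compared with the wild type (WT) liver in the early and the middle subjective night, at CT14 and CT18. These libraries were chosen by their titles, and 8 of the 24 libraries of the series qualified, namely 2 WT and 2 ΔRRE libraries at CT14 and 2 of each genotype at CT18. The study followed poly(A) RNA of the liver through the day at 6 time points in both genotypes, to learn what becomes of the circadian transcriptome when *Bmal1* loses its rhythmic control elements. All animals were adult C57BL/6 males that had been moved to constant darkness, so CT denotes the projected circadian time in hours. The ΔRRE mice were homozygous for a genome-edited deletion of both RREs in the 5'-UTR of *Bmal1* and came from a single mutant line, and the WT mice carried no edit.

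In the circadian clock, a negative feedback loop runs through E-box elements: PER and CRY, whose own genes are switched on by the CLOCK-BMAL1 dimer, return to inhibit it. The same dimer drives *Nr1d1* and *Nr1d2*, the genes of the REV-ERB proteins. The REV-ERB repressors and ROR activators compete for the RRE, a short element through which *Bmal1* itself and other clock-controlled genes are rhythmically transcribed. In WT liver the REV-ERB genes are expressed most strongly during the day, and *Bmal1* RNA accumulates as they decline through the night.

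The deleted elements are the reason for the comparison, so their reference sequences are shown here. Both lie in exon 1 of 20 of the *Bmal1* gene, which the annotation lists as *Arntl* (ENSMUSG00000055116, GRCm38, chr7:113207465-113314126, plus strand), in its non-coding 5' end. The first RRE is within chr7:113207495-113207517 and the second within chr7:113207531-113207553, with the 11 bases of each element in capitals.
First RRE: ggtcggAAAGTAGGTTAgtggtg
Second RRE: aggcagAAAGTAGGTCAgggacg
The 2 elements start 37 and 73 bases into the annotated transcript. The letters come from the reference transcript and were not read from these mice.

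Expression was given as FPKM (fragments per kilobase of transcript, scaled to the mapped fragments of the library). Of 54733 genes, 11244 averaged at least 1 FPKM across the 24 libraries and were tested. Read counts were not among the values used here, so the sequencing depth behind each FPKM is unknown. Levels of the 8 libraries correlated across genes with Pearson's r between 0.942 and 0.976, and the lowest value involved ΔRRE CT14 replicate 1. Hepatocyte markers such as *Alb* summed to between 54597 and 67238 FPKM in every library, and markers of adipose tissue and pancreas to between 11.6 and 28.1. The latter sum came almost wholly from *Cela1*, the only 1 of 7 such markers that was high enough to be tested. *Adipoq* reached at most 0.0729 FPKM, and *Plin1*, *Prss2*, *Cpa1*, *Amy2a5* and *Pnlip* were at 0 in all 8 libraries. The labels do not say whether the 2 replicates of a group were separate animals, so p-values measure the spread between these libraries only.

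No gene differed between ΔRRE and WT at CT14 and CT18 after adjustment over all 11244 genes (limma, adjusted p under 0.05, 0% of genes), and the smallest adjusted p was 0.980. At an unadjusted p under 0.05 there were 473 genes (4.21%), 377 with higher levels in ΔRRE (3.35% of the genes tested) and 96 with lower levels (0.854%), where 562.2 would pass if no gene differed. The fit of all 24 libraries, which takes the spread from every time point, called 3 genes for the same comparison, *Gm21981*, *Zfp595* and *Golt1a*. In what follows a gene is said to pass the unadjusted threshold where its p without adjustment was under 0.05. Higher and lower give the direction of the measured values. Differences are in log2 units, ΔRRE minus WT, ± SE with 4 libraries of each genotype unless another fit is named. Values for night against the other times come from the fit of all 24 libraries. Fits that leave out a library rest on the libraries that remain. The excess of higher over lower genes depended on the scaling: with libraries scaled by the median of ratios, 194 genes were higher and 190 lower, and the median gene was 0.07 log2 units higher in ΔRRE before that scaling. The count of higher genes was 573 without WT CT14 replicate 1 and 234 without WT CT14 replicate 2. The genotype differences at CT14 and at CT18, which came from separate libraries, correlated across the 11244 genes with Pearson's r of 0.0376, and 54.1% of genes had the same sign at both times.

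*Bmal1* differed between the genotypes in how it moved from CT14 to CT18 rather than in its night mean. In WT liver *Arntl* was at 2.21 and 1.15 FPKM at CT14 and at 5.96 and 5.76 at CT18. In ΔRRE liver it was at 2.59 and 2.49 FPKM at CT14 and at 2.70 and 3.24 at CT18. Both ΔRRE libraries lay above both WT libraries at CT14 and below both at CT18, and the 4 ΔRRE values lay between the WT values of the 2 times. The genotype difference was 0.64 at CT14, short of the unadjusted threshold, and -0.96 at CT18, which passed it. The difference between those 2 differences was -1.60 ± 0.43 and passed the unadjusted threshold (limma, adjusted p = 0.9996), and the night mean differed by -0.16 ± 0.33.

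**Figure D1:**
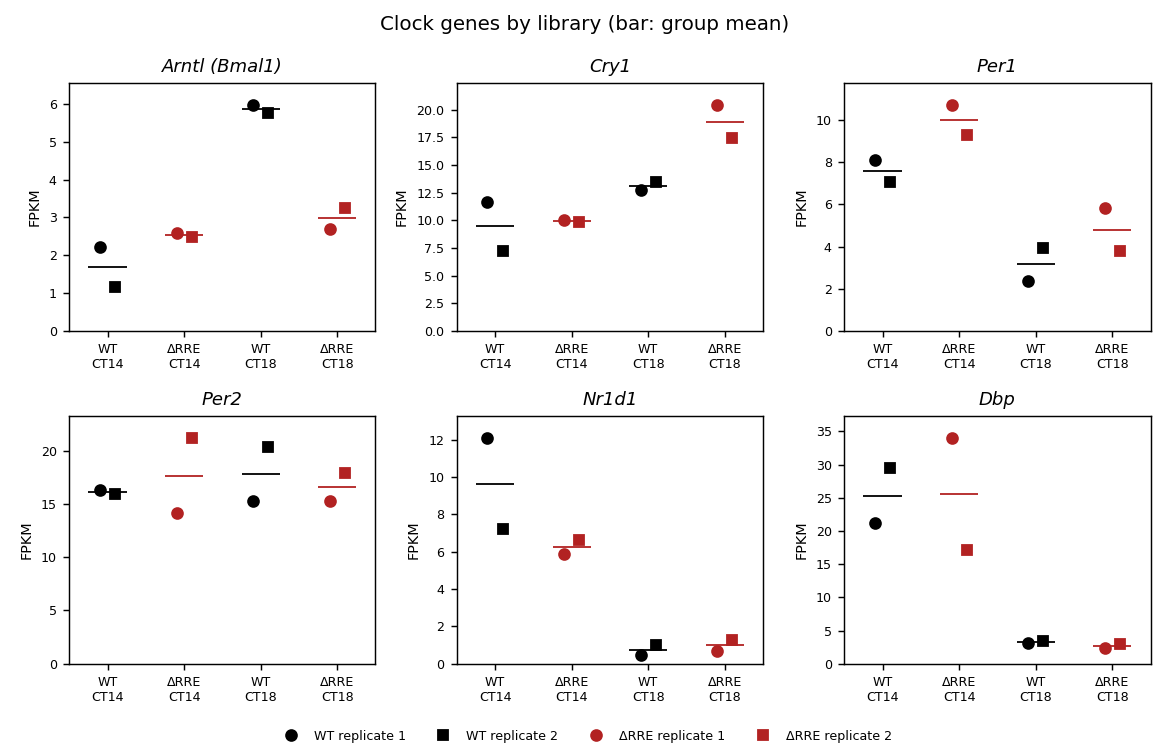
FPKM of 6 clock genes in each of the 8 libraries, with WT in black, ΔRRE in red, circles for replicate 1, squares for replicate 2 and a bar at each group mean. *Arntl* went from 2.21 and 1.15 at CT14 to 5.96 and 5.76 at CT18 in WT and was between 2.49 and 3.24 in ΔRRE, while *Nr1d1* and *Dbp* were lower at CT18 than at CT14 in both genotypes.

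For most other clock genes CT18 differed from CT14 in the same direction in both genotypes. Among 19 clock genes with measurable levels at these times, the change from CT14 to CT18 had the same sign in both genotypes for 18, and the changes correlated across genes with Pearson's r of 0.91. *Nr1d1*, which encodes the repressor REV-ERBα, was at 12.1 and 7.21 FPKM in WT and 5.86 and 6.64 in ΔRRE at CT14, and at 0.457 and 0.990 in WT and 0.691 and 1.27 in ΔRRE at CT18. Both genotypes were lower at CT18, with differences from CT14 of -3.60 log2 units in WT and -2.61 in ΔRRE, and the difference of 0.99 ± 0.59 did not pass the unadjusted threshold. *Dbp*, an E-box gene that encodes a D-box activator, differed by -2.88 log2 units between CT18 and CT14 in WT and by -3.12 in ΔRRE. *Arntl* was the only one of the 20 clock genes to pass the unadjusted threshold in the test of that difference, which 3.04% of all genes passed (2.06% with a positive and 0.978% with a negative value).

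Of the 6 clock activators and RRE-driven genes none passed the unadjusted threshold for the night mean, and their median difference was 0.07, the same as for all genes tested. *Cry1*, a repressor with both E-box and RRE control, was at 11.7 and 7.19 FPKM in WT and 10.0 and 9.83 in ΔRRE at CT14. At CT18 it was at 12.7 and 13.4 in WT and 20.4 and 17.4 in ΔRRE. The groups overlapped at CT14 and were apart at CT18, and the difference of the night mean was 0.32 ± 0.17 and did not pass. *Npas2*, a CLOCK paralogue, was near 0 in both genotypes, with no library above 0.327 FPKM. *Clock*, *Nfil3* and *Rora* differed by 0.03, -0.00 and 0.10 log2 units.

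Of 14 measured E-box and D-box clock genes, 2 passed the unadjusted threshold with higher levels and none with lower ones, compared with 3.35% and 0.854% of all genes, and the median difference was -0.09. With the median of ratios 2 members were higher and 2 lower, and the median was -0.16. The light- and glucocorticoid-inducible repressor gene *Per1* was at 8.09 and 7.06 FPKM in WT and 10.7 and 9.32 in ΔRRE at CT14, and at 2.37 and 3.95 in WT and 5.83 and 3.77 in ΔRRE at CT18. Only at CT18 did the groups overlap, and the difference was 0.50 ± 0.20. The other was *Tspan4*, which encodes a tetraspanin, with 0.36 ± 0.14. Without ΔRRE CT14 replicate 1 neither gene passed, and *Nr1d2* (-0.41), *Dbp* (-0.38) and *Tef* (-0.32) passed with lower levels instead. *Per2* differed by 0.00 ± 0.16 at night and by -0.75 at the 4 other time points in the fit of all 24 libraries. The difference between night and the other times was 0.76 ± 0.32, which passed the unadjusted threshold (limma, adjusted p = 0.999).

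One ΔRRE library stood apart by its acute-phase genes, which liver cells switch on in response to inflammatory cytokines. ΔRRE CT14 replicate 1 had the highest level of the 8 libraries for 21 of 26 measured acute-phase genes (80.8%), compared with 24.3% of all genes tested. *Saa1*, a serum amyloid A gene, was at 1069 FPKM in this library and 63.2 in the other ΔRRE CT14 library, with WT at 68.8 and 245 at CT14 and 60.2 and 445 at CT18 and ΔRRE at 39.9 and 149 at CT18. *Lcn2*, which encodes an iron-scavenging lipocalin, was at 205 FPKM in it and between 2.86 and 8.31 in the 7 others. The haptoglobin gene *Hp* was at 5247 FPKM in it and between 1169 and 2143 in the others. For 19 of the 26 genes replicate 1 exceeded replicate 2 by more than 1 log2 unit, while *Cp*, which encodes ceruloplasmin, and *Hamp*, which encodes the iron hormone hepcidin, were at 0.978 and 0.953 times the level of replicate 2.

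**Figure D2:**
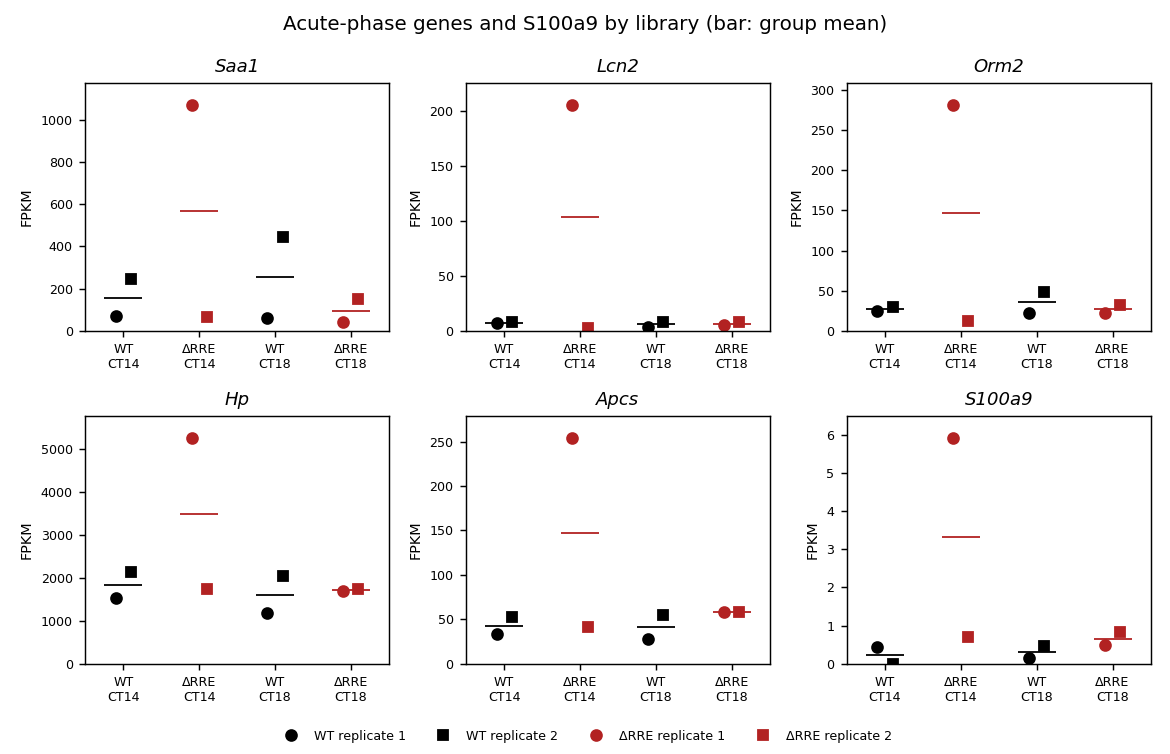
FPKM of 5 acute-phase genes and of *S100a9*, a neutrophil gene, in each of the 8 libraries (WT black, ΔRRE red, circles replicate 1, squares replicate 2, bars group means). ΔRRE CT14 replicate 1 is the highest library in every panel, for example 205 FPKM of *Lcn2* against at most 8.31 elsewhere.

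The median of the acute-phase list changed sign with this library. With all 8 libraries none of the 26 genes passed the unadjusted threshold, and the median difference was 0.23 log2 units, made up of 0.54 at CT14 and -0.08 at CT18. Without ΔRRE CT14 replicate 1 the median was -0.14 and 2 genes passed with lower levels. At the 4 other time points, which hold none of these libraries, 24 of the 26 genes had higher means in ΔRRE, and the median was 0.36. There 11 passed the unadjusted threshold with higher levels (4.42% of all genes did) and none with lower ones. The spread in that test came from the fit of all 24 libraries and so includes these 8. The spread that this library brought in was large: *Lcn2* differed by 0.99 ± 1.08 with it and by -0.38 ± 0.42 without it.

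Across all genes, leaving out ΔRRE CT14 replicate 1 gave 286 genes higher (2.54%) and 99 lower (0.88%) at the unadjusted threshold, and again none after adjustment. Of the 377 higher genes 173 were shared with those 286, that is 45.9% of the first list and 60.5% of the second. Of the 96 lower genes 46 were shared, 47.9% and 46.5% of the lists. Differences beyond 1 log2 unit went from 120 to 90 genes, of which 64 were common to both with the same sign. Such overlaps were not counted for any other library left out, so whether they are particular to this one was not tested. At CT14 alone the balance turned, from 251 genes higher (2.23%) and 157 lower (1.4%) with the library to 177 higher and 197 lower without it.

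Haemoglobin genes were higher in the ΔRRE libraries at both times. *Hba-a1*, an α-globin gene, was at 246 and 109 FPKM in WT and 1085 and 295 in ΔRRE at CT14, and at 175 and 118 in WT and 553 and 273 in ΔRRE at CT18. Every ΔRRE library lay above every WT library, with ΔRRE CT14 replicate 1 far above the rest. The 4 globin genes *Hba-a1*, *Hba-a2*, *Hbb-bs* and *Hbb-bt* differed by between 1.55 and 1.67 log2 units, 3.05-fold for *Hba-a1*, and all 4 passed the unadjusted threshold. The paralogues share much of their sequence (92.6% of the 31-base words of *Hba-a2* occur in *Hba-a1*), so they are not separate pieces of evidence. *Alas2*, the erythroid enzyme of haem synthesis, was at 26.9 and 41.7 FPKM in WT and 54.1 and 46.9 in ΔRRE at CT14 and overlapped at CT18 (difference 0.27 ± 0.19, not passing).

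Without ΔRRE CT14 replicate 1 the 4 globin genes differed by between 1.11 and 1.22 and all still passed the unadjusted threshold. At the 4 other time points the globin genes differed by between 0.23 and 0.26 and none passed. The difference between night and the other times was 1.38 ± 0.55 for *Hba-a1* and passed the unadjusted threshold (limma, adjusted p = 0.999). Globin RNA is carried by immature red cells in blood. In bulk liver, fewer cells of a type and less RNA per cell cannot be told apart. Of the markers of other blood cells, *S100a9* was at 0.432, 0, 0.137 and 0.471 FPKM in WT and 5.91, 0.710, 0.478 and 0.834 in ΔRRE (2.13 ± 0.84, passing). It was the only one of 10 neutrophil and monocyte markers that was high enough to be tested. Of 11 lymphocyte markers only 2 were high enough to be tested. The immunoglobulin gene *Igkc* differed by 1.11 ± 0.45 and passed, and the other, *Ighm*, did not (0.62). None of the 12 Kupffer cell and macrophage markers passed (median 0.23). The summed level of the erythroid markers was between 466 and 995 FPKM in WT and between 1094 and 4451 in ΔRRE. Without ΔRRE CT14 replicate 1 neither *S100a9* (1.32 ± 0.69) nor *Igkc* (0.79 ± 0.44) passed, and the part of blood cells in any other difference was not tested.

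Genes induced by interferon held the largest share of genes past the unadjusted threshold among the functional lists. Of 16 measured members 7 passed with higher levels and none with lower ones, against 3.35% and 0.854% of all genes, and the median difference was 0.37 log2 units against 0.07 for all genes. *Isg15*, a ubiquitin-like modifier, was at 5.95 and 3.64 FPKM in WT and 8.32 and 8.04 in ΔRRE at CT14, and at 6.83 and 7.05 in WT and 8.17 and 9.30 in ΔRRE at CT18. The antiviral RNA-binding gene *Ifit1* was at 1.40 and 1.40 FPKM in WT and 2.05 and 2.30 in ΔRRE at CT14, and at 1.61 and 1.75 in WT and 2.46 and 2.18 in ΔRRE at CT18. For both genes the 4 ΔRRE libraries lay above the 4 WT libraries, by 0.56 ± 0.18 for *Isg15* and 0.52 ± 0.17 for *Ifit1*.

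Among the others were *Psmb9*, a subunit of the immunoproteasome (0.59 ± 0.18), *Ifit3* (0.50 ± 0.17), the antiviral enzyme *Rsad2* (0.73 ± 0.27) and the chemokine *Cxcl10* (1.01 ± 0.40). The genes named here were at low levels, at most 10.5 FPKM in any of the 8 libraries. WT CT14 replicate 2 was the lowest library for 8 of the 16 genes, and without it 6 passed and the median was 0.26. Between 5 and 6 members passed when any library was left out, and 2 in the fit of all 24 libraries. At the other time points no member passed and the median was 0.03 (4.42% of all genes passed with higher and 1.84% with lower levels). The test of night against the other times passed the unadjusted threshold for 2 of the 16 members, compared with 3.24% of all genes (2.27% with a higher value at night).

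The interferon-stimulated response element was looked for in the promoters of these genes as 2 copies of GAAA with any 2 bases between them, on either strand, from 250 bases before to 50 after each start site in RefSeq (GRCm38.p6). It was found in 9 of the 14 listed genes that have a promoter in that table, and in 3.57% of all tested genes that have one. Of the genes named above, *Isg15*, *Ifit1*, *Ifit3*, *Rsad2* and *Cxcl10* held a match, and *Psmb9* held none in this window. One match for each of the 5 is shown on the strand where it reads as written, with its letters in capitals. Matches may overlap one another, as in *Isg15*.
Isg15 (chr4:156200873-156200898): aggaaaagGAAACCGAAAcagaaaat
Ifit1 (chr19:34640796-34640821): agcagtgaGAAACTGAAActgagact
Ifit3 (chr19:34583399-34583424): ggaaagtaGAAACTGAAAcagactta
Rsad2 (chr12:26456555-26456580): tgttttctGAAAATGAAAgttggacc
Cxcl10 (chr5:92349085-92349110): acgctttgGAAAGTGAAActtacctc
A match is a run of letters in the reference and says nothing about whether a factor was bound.

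Cholesterol synthesis genes, targets of the transcription factor SREBP2, had the highest median of the functional lists. All 24 measured members had higher means in ΔRRE, with a median of 0.52 log2 units (0.30 at CT14 and 0.73 at CT18), but only *Mvd*, *Fdft1* and *Idi1* passed the unadjusted threshold, 3 of 24 compared with 3.35% of all genes, and 1 member passed with the median of ratios. *Mvd*, mevalonate decarboxylase, was at 8.94 and 4.91 FPKM in WT and 13.1 and 14.8 in ΔRRE at CT14, and at 6.26 and 14.3 in WT and 35.2 and 15.6 in ΔRRE at CT18. The ΔRRE libraries were higher at both times, though ΔRRE CT14 replicate 1 was below WT CT18 replicate 2 (difference 1.18 ± 0.33). *Sqle*, squalene epoxidase, was at 15.5 and 4.45 FPKM in WT and 18.3 and 17.5 in ΔRRE at CT14, and at 4.22 and 35.8 in WT and 51.5 and 31.2 in ΔRRE at CT18.

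The count and the median of these genes depended on single libraries. WT CT18 replicate 1 was the lowest library for 12 of the 24 genes and WT CT14 replicate 2 for 11, and ΔRRE CT18 replicate 1 was the highest for 19. Without WT CT18 replicate 1 a single member passed and the median was 0.21, and without WT CT18 replicate 2 there were 14 members and a median of 0.77. At the other time points the direction was the reverse, with lower means in ΔRRE for all 24 members and a median of -0.36, none of them passing. The test of night against the rest of the day passed the unadjusted threshold for 2 of the 24 members, *Mvd* (1.89 ± 0.80) and *Sqle* (2.03 ± 0.94), compared with 3.24% of all genes.

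**Figure D3:**
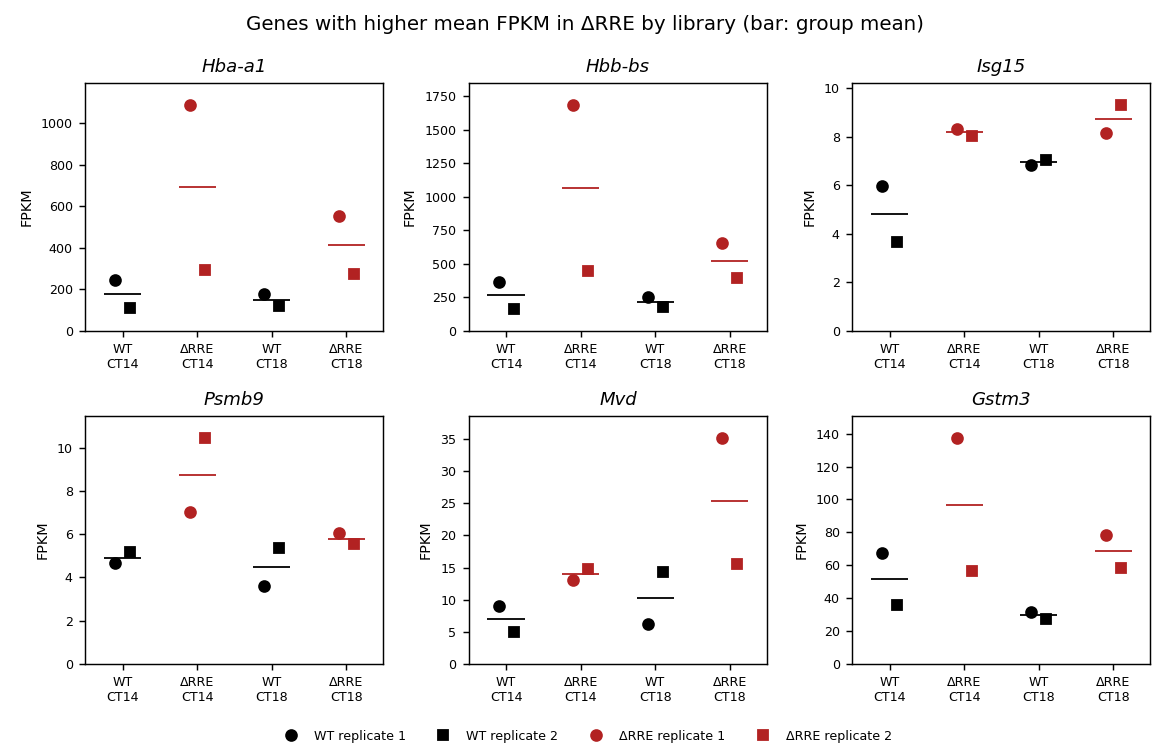
FPKM of 6 genes that passed the unadjusted threshold with higher levels in ΔRRE (WT black, ΔRRE red, circles replicate 1, squares replicate 2, bars group means). At each time both ΔRRE libraries exceed both WT libraries for *Hba-a1*, *Hbb-bs*, *Isg15*, *Psmb9* and *Mvd*, and *Gstm3* overlaps at CT14.

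Other liver pathways held a few members each that passed the unadjusted threshold. With higher levels these were 2 of 17 fatty acid synthesis genes (median -0.03) and 1 of 17 genes of bile acid synthesis and transport. Of 11 ATF4 targets 1 passed with higher levels, and so did 1 of 11 immediate-early genes. None of these lists had a member passing with lower levels. The shares over all genes were 3.35% higher and 0.854% lower. In the NRF2 list 2 of 16 genes, both for glutathione transferases, passed with higher levels, compared with 3.35% of all genes. *Gstm3* was at 67.5 and 35.9 FPKM in WT and 137 and 56.5 in ΔRRE at CT14, and at 31.6 and 27.4 in WT and 78.5 and 58.5 in ΔRRE at CT18 (1.02 ± 0.29). *Gstm1* differed by 0.66 ± 0.20, and the 2 paralogues share 13.0% of the 31-base words of *Gstm1*. The remaining 14 members of that list did not pass, and its median was 0.18.

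Ribosome biogenesis genes had a median of 0.18, and 3 of 20 passed with higher levels compared with 3.35% of all genes, namely *Polr1a*, the catalytic subunit of RNA polymerase I (0.50 ± 0.18), and the small nucleolar ribonucleoprotein genes *Nop56* (0.62 ± 0.23) and *Gar1* (0.39 ± 0.15). WT CT18 replicate 1 was the lowest library for 17 of the 20, and no member passed without it or without ΔRRE CT18 replicate 1. Of 15 glucocorticoid-responsive genes 4 passed with higher levels and none with lower ones (3.35% and 0.854% of all genes), among them *Cdkn1a*, a cell cycle inhibitor (1.26 ± 0.45), and the phosphatase gene *Dusp1* (0.56 ± 0.21), while the median of the list was -0.02. When ΔRRE CT14 replicate 1 was left out the count became 1 higher (*Dusp1*) and 3 lower, the latter being *Fkbp5* (-0.35) and the metallothionein genes *Mt1* (-1.69) and *Mt2* (-2.98), and *Cdkn1a* no longer passed (0.98). With the median of ratios 2 members of the list passed with higher and 1 with lower levels.

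On FPKM as given, fewer genes passed the unadjusted threshold with lower levels in ΔRRE (96) than with higher ones (377). With the median of ratios the counts were 190 and 194. *Gadd45a*, a DNA damage and growth arrest gene, was at 5.34 and 4.37 FPKM in WT and 5.04 and 4.34 in ΔRRE at CT14, but at 6.87 and 8.26 in WT and 2.65 and 2.75 in ΔRRE at CT18. The genotypes overlapped at CT14 and were far apart at CT18 (difference -1.45 at CT18, adjusted p = 0.337 with limma). Of 24 measured genes of xenobiotic metabolism 2 passed with lower levels, *Cyp2a5* and *Ugt1a1*, and 1 with higher levels, *Cyp2c55*. Of all genes 0.854% passed with lower and 3.35% with higher levels, and the median of the list was -0.06. *Cyp2a5*, a cytochrome P450 of drug and nicotine metabolism, was at 1029 and 595 FPKM in WT and 404 and 479.8 in ΔRRE at CT14, and at 542 and 440.2 in WT and 429.6 and 392 in ΔRRE at CT18. Its difference was -0.54 ± 0.20 at night and -0.75 at the other times, and both passed the unadjusted threshold, but the night difference did not pass without ΔRRE CT14 replicate 1 (-0.43 ± 0.21). *Ugt1a1*, the bilirubin-conjugating enzyme, differed by -0.53 ± 0.22, but it shares 1311 exon bases with each of 8 other *Ugt1a* genes, so its value is uncertain. *Ppara*, the nuclear receptor of fasting, differed by -0.42 ± 0.18.

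In gluconeogenesis, glucose uptake and glycogen, lipid storage, heat shock, the unfolded protein response, hepatocyte transcription factors and sex-biased genes no member passed the unadjusted threshold. Their medians lay between -0.30 (19 sex-biased genes) and 0.23 (22 genes of the unfolded protein response). The sex-biased median was -0.03 without ΔRRE CT14 replicate 1. The unfolded protein response had 10 members passing with higher levels without WT CT18 replicate 2 and none in the other fits that left out a library.

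**Figure D4:**
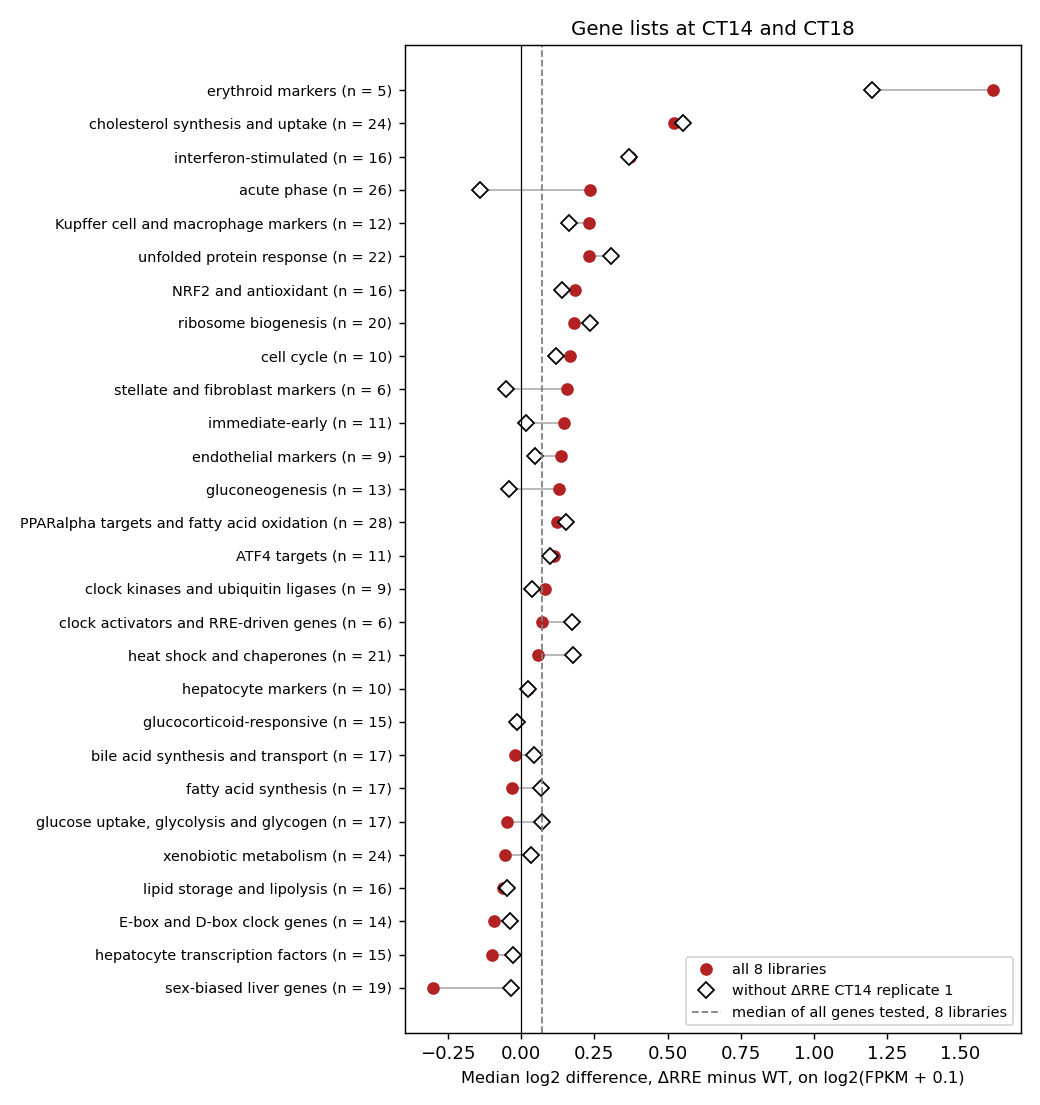
Median log2 difference (ΔRRE minus WT, on log2(FPKM + 0.1)) of each list with at least 5 measured genes, with all 8 libraries (red circles) and without ΔRRE CT14 replicate 1 (open diamonds). The acute-phase median moved from 0.23 to -0.14 and the erythroid one from 1.61 to 1.20, while the interferon median was 0.37 in both and the cholesterol median went from 0.52 to 0.55.

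The ΔRRE libraries lay on one side of the WT libraries at both times for 480 genes with higher (4.27%) and 84 with lower levels (0.747%). Among those that also passed the unadjusted threshold, the 10 largest positive differences were those of *S100a9*, the 4 globin genes, the small nucleolar RNA genes *Snord89* and *Gm22579*, *Bola1*, *Gm47283* and *Gm21887*. Poly(A) libraries do not capture small nucleolar RNAs well, and *Gm22579* shares 133 exon bases with *Taf1d*, so these values are uncertain. *Bola1*, a mitochondrial iron-sulfur protein gene, was at 1.78 and 2.00 FPKM in the 2 WT replicates numbered 1 and between 9.63 and 17.1 in the 6 other libraries.

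*Gm47283* on chromosome Y and *Gm21887* on chromosome X had the first and the third smallest p of the comparison (limma, adjusted p = 0.980). *Gm47283* was at 14.8 and 26.5 FPKM in WT and 33.5 and 45.0 in ΔRRE at CT14, and at 29.9 and 25.6 in WT and 103 and 129.6 in ΔRRE at CT18. At CT18 both ΔRRE libraries stood above all others of the day, the highest of which had 59.4 FPKM. The genotype difference was 1.52 ± 0.26 for *Gm47283* and 1.36 ± 0.25 for *Gm21887*. The 2 genes share 501 words of 31 bases, 62.0% of those of *Gm21887*, so reads can be split between them and they count as 1 signal.

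Chosen in the same way, the 10 largest negative differences were those of pseudogenes and weakly expressed genes, with the zinc finger gene *Zfp260* (-0.90 ± 0.27) and the matrix gene *Podn* (-0.73 ± 0.23) among them. *Gm28557* was at 3.28 and 2.95 FPKM in WT and 1.71 and 1.62 in ΔRRE at CT14, and at 2.44 and 2.53 in WT and 1.26 and 1.38 in ΔRRE at CT18. All 4 ΔRRE libraries were lower (-0.86 ± 0.15), and at the other times the difference was 0.48. *Gm28557* shares 2537 exon bases with *Zfp708*, which was at 0.157, 0.000633, 0.583 and 0.00688 FPKM in WT and 0, 2.26, 2.099 and 1.43 in ΔRRE.

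Testing each time alone, *Gm21981* was the single gene past the adjusted threshold at CT14 (0.00889% of genes, difference 5.72, adjusted p = 1.21e-05). It was also the only gene past the adjusted threshold in the test of the difference between CT14 and CT18 (-5.76, adjusted p = 0.00018). It was at 0.133 and 0.121 FPKM in WT at CT14 and between 10.5 and 12.3 in the other 6 libraries. *Gm21981* (chr17:47686739-47694455, minus strand) shares 859 exon bases with *Tomm6* (chr17:47686646-47688386, minus strand), a subunit of the mitochondrial import complex. *Tomm6* was at 54.9 and 45.1 FPKM in WT at CT14 and between 8.80 and 14.3 in the other 6. The same 2 libraries were thus at the bottom for one gene and at the top for the other, and the assignment of reads from the shared exons was not tested.

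*Golt1a*, a Golgi transport gene, was also lower in these 2 WT libraries alone, at 1.35 and 0.846 FPKM against 5.40 to 8.28 in the other 6. *Zfp595* was lower in both WT libraries at CT18, at 0.00972 and 0.00299 FPKM against 1.18 to 2.48 in the other 6 (difference 4.39 at CT18, adjusted p = 0.067). No gene passed at CT18 (0% of genes), where 363 passed the unadjusted threshold (3.23%, of which 293 higher, 2.61%, and 70 lower, 0.623%), and at CT14 there were 408 (3.63%). Without ΔRRE CT14 replicate 2, which leaves ΔRRE CT14 replicate 1 alone in its group, 14 genes passed at CT14, with *Lcn2* among them.

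**Figure D5:**
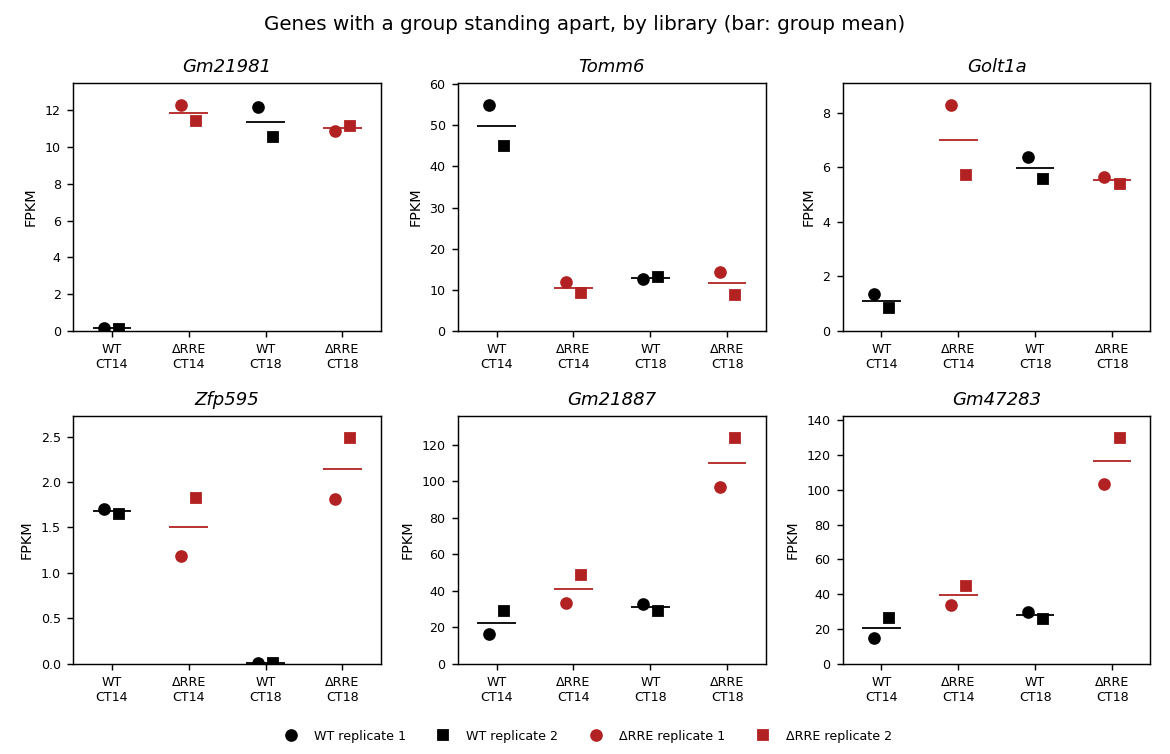
FPKM of 6 genes in which a group stood apart (WT black, ΔRRE red, circles replicate 1, squares replicate 2, bars group means). Both WT CT14 libraries are near 0 for *Gm21981* and above 45 for *Tomm6*, both WT CT18 libraries are near 0 for *Zfp595*, and both ΔRRE CT18 libraries are near or above 97.0 for *Gm21887* and *Gm47283*.

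Across the 4 groups 17 of the 11244 genes tested had both libraries of a group more than 0.5 log2 units beyond all 22 others, 13 of them below and 4 above. Of these 10 belonged to WT CT14, 4 to WT CT18, 1 to ΔRRE CT14 and 2 to ΔRRE CT18. The same rule gave 30 genes in the groups of the other times, 21 below and 9 above, with 12 of them in WT CT10. Such genes were thus not particular to the night groups. Exon bases were shared with another gene on the same strand by 6 of the 17 (35.3%), compared with 9.18% of the genes tested. *Gm21981* and *Tomm6*, which overlap each other, are both among these 6, so they do not count separately. The contrast of night against the other times passed the adjusted threshold for *Gm21981* (2.84, adjusted p = 5.74e-06) and *Zfp595* (1.91, adjusted p = 0.021). The summed FPKM of *Tomm6* and *Gm21981* was 55.0 and 45.2 in the WT CT14 libraries and between 19.9 and 25.2 in the others. FPKM are scaled by transcript length, and the annotated transcripts hold 1154 different words of 31 bases for *Tomm6* and 2691 for *Gm21981*. The sum is therefore not a count of reads from both genes.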

How the data were processed

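Liver poly(A) RNA of 8 libraries was compared, 4 WT and 4 ΔRRE, grouped by their titles with 2 libraries for each genotype and time. The authors deposited FPKM per gene and library, 1 file per sample, without read counts. The submitters' processing notes name Trimmomatic 0.39, HISAT2 2.1.0, StringTie 1.3.5 and the mm10 build, without roles or order. The annotation and strand setting are not given in the sources used here. The kit was directional.

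FPKM were transformed as log2(FPKM + 0.1). This pseudocount understates changes of weakly expressed genes. Genes averaging at least 1 FPKM over the 24 libraries were fitted with limma 3.58.1 (R 4.3.3, empirical Bayes with trend), with genotype and time point as factors. Cell means gave CT14, CT18 and their difference, and a fit of all 24 libraries gave night against the other times. Benjamini-Hochberg adjustment covered all 11244 genes, and the fits were tested on simulated data. No set test was run, and lists are given by counts and medians. Alternatives were the pseudocount, the filter, scaling by the median of ratios, limma without trend or robust, all 24 libraries, an acute-phase covariate (the mean log2 level of that list in each library), the replicate block and leaving out each library.

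A rule picked genes for naming: all measured clock genes, any gene past the adjusted threshold, and the 5 smallest p of the interaction. It also took up to 4 members of each other list by p. To these it added the 10 largest differences in each direction among genes past the unadjusted threshold whose genotypes were apart at both times. Only some of the genes that the rule picked are described here. Other genes were named after their values were seen, among them some of those in which a group stood apart and *Zfp708*. The libraries, lists and rules were chosen with earlier results of these data known. Coordinates are from GENCODE M21 (GRCm38), in which 54528 of 54733 gene IDs were found, promoters are from RefSeq (GRCm38.p6), and exon overlaps and shared words of 31 bases were counted from GENCODE with Python 3.11.15. A second deposited table with the same values was not used.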

Additional observations from a re-analysis of the deposited data

Results flagged for a closer look

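In each genotype the 4 night libraries were examined for a value far from the others (gap to the nearest library divided by the range of the 4, against the 95% critical value of Dixon's test), over 140 groups of named genes and lists. For 4 values that do not depend on time, chance flags about 1 in 20, that is 7 of 140, and 6 were flagged. Each set held 2 libraries of each time, so this expectation does not hold for genes that change between the times. In ΔRRE these were the *Rora* level in CT18 replicate 1 (0.866), which was the highest, and the mean level of the xenobiotic list in the same library (0.949), which was also the highest. In WT they were *Snord89* in CT14 replicate 2 (0.856), which was listed at 0, the interferon list in the same library (0.861), which was the lowest, the hepatocyte marker list in CT18 replicate 2 (0.842), which was the lowest, and the stellate and fibroblast list in CT14 replicate 1 (0.853), which was the highest. The acute-phase list in ΔRRE CT14 replicate 1 did not reach the critical value.

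The genotype difference of *Gm21981* was not the same at the 2 times (-5.76 log2 units for CT18 minus CT14, limma, adjusted p = 0.00018), with the WT CT14 libraries at 0.133 and 0.121 FPKM and the other 6 between 10.5 and 12.3. The overlapping *Tomm6* was highest in those WT libraries.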

How the results depend on the processing

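No gene passed the adjusted threshold for both times together under any alternative except the fit of all 24 libraries, which called 3 (*Gm21981*, *Zfp595* and *Golt1a*). Genes past the unadjusted threshold numbered 788 higher and 272 lower with no filter, where more genes were tested, 221 and 48 with a mean of at least 5 FPKM, where fewer were, and 194 and 190 with the median of ratios. At CT14 alone the adjusted count of 1 became 4 with a pseudocount of 1 and 3 with the filter at 5 FPKM, with robust limma and with all 24 libraries. At CT18 alone the count of 0 became 1 with a pseudocount of 0.01, without trend, with robust limma and with all 24 libraries. The interaction count of 1 became 2 without trend and 3 with all 24 libraries, and the night against rest count of 2 became 1 with a pseudocount of 1. Unless named otherwise, the cause was not tested.

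Leaving out 1 library, which assumes that the lone library of its group varies like the others, gave 234 (without WT CT14 replicate 2) to 573 (without WT CT14 replicate 1) higher genes and 74 to 139 lower ones. The adjusted counts ranged from 1 to 14 at CT14, from 0 to 3 at CT18 and from 1 to 4 for the interaction. At CT14 the 14 came without ΔRRE CT14 replicate 2, where 948 genes passed the unadjusted threshold in place of 408. The acute-phase covariate gave 353 higher and 114 lower genes.

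The labels do not say that equal replicate numbers mark a shared day or litter. Deviations of same-numbered libraries correlated by 0.0857 at CT14 and 0.198 at CT18. With 2 numbers per time these values cannot show whether a day or litter was shared. The libraries were treated as sharing only a number. With the replicate block 532 genes were higher and 144 lower, 0 passed the adjusted threshold for both times, and *Gm21981* remained the call at CT14 and for the interaction. Without ΔRRE CT14 replicate 1 the balance of genes past the unadjusted threshold turned at CT14, to 177 higher and 197 lower, and so did those of the E-box and D-box clock genes (0 higher, 3 lower) and the glucocorticoid-responsive genes (1 higher, 3 lower).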
